A study of Mus musculus with 12 samples.

Results

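The 8 genes described here, Hmgcs1, Idi1, Fdps, Fdft1, Sqle, Lss, Cyp51 and Dhcr7, encode enzymes of cholesterol synthesis. They were taken by symbol from tables of 32692 gene rows, and all 8 were found and had enough counts to be tested. RNA-seq counts of kidneys of wild-type, untreated mice were set side by side for day 8 (5 libraries) and day 0 (6 libraries). A further day 8 sample named in the labels was not analysed here. The series asks which transcripts change in the kidney during the neonatal period. The labels give no sex, litter, strain or batch and do not say whether libraries come from separate animals, so p-values measure the spread between these libraries, which may be technical.

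Cells build cholesterol from acetyl-CoA in the cytosol and the endoplasmic reticulum. The mevalonate arm of the pathway ends in farnesyl diphosphate, which also feeds protein prenylation, dolichol and ubiquinone, and the sterol arm joins a pair of farnesyl units into squalene, closes the rings and trims lanosterol down to cholesterol. When sterols in the endoplasmic reticulum membrane run low, SCAP carries the SREBP transcription factors to the Golgi apparatus, where proteases release their active part, and SREBP-2 in particular raises transcription of genes along the whole pathway. In the kidney, cholesterol is a main lipid of the tubule cell's plasma membrane and its brush border.

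SREBP binds sterol regulatory elements near transcription start sites, usually beside sites of NF-Y, which binds CCAAT boxes, or of Sp1, which binds GC boxes. RefSeq promoter windows on GRCm38.p6, from 250 bases before to 50 bases after an annotated start site, were found for 5 of the 8 genes (7 windows, 3 of them for Dhcr7). Fdps, Fdft1 and Sqle had no entry. The windows of Hmgcs1 (chr13:119690101-119690400, plus strand), Idi1 (chr13:8885356-8885655, plus strand) and Cyp51 (chr5:4104648-4104947, minus strand) are shown because they hold the sterol element core with CCAAT boxes, a pair of CCAAT boxes, and a single CCAAT box. Capitals mark the sterol element core and CCAAT, which reads ATTGG where it lies on the other strand.
Hmgcs1: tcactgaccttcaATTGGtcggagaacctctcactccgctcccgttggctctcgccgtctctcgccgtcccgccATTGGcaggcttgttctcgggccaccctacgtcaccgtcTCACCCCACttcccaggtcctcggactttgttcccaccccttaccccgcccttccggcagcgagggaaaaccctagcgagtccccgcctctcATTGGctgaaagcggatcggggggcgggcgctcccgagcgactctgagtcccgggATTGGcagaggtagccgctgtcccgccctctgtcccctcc
Idi1: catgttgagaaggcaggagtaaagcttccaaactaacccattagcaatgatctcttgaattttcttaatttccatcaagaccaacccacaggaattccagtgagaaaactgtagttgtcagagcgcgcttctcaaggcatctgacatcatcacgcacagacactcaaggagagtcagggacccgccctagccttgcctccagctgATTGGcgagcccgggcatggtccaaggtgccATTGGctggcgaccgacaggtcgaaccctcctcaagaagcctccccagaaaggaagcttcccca
Cyp51: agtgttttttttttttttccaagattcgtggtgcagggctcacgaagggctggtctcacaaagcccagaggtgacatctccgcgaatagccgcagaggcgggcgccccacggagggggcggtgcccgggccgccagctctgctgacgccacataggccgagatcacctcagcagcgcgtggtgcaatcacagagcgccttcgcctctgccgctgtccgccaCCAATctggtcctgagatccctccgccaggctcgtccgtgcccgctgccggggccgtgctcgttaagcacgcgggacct

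The sterol element core was searched as TCACNCCAC on both strands. It occurred in 1.24% of the 32851 promoter windows of the table, and among these genes in that of Hmgcs1 alone, as TCACCCCAC beginning 137 bases before the start site. CCAAT was found in 5 of the 7 windows of these genes, against 37.4% of all windows, and GGGCGG in 6 of the 7, against 35.7%. Counted by gene, both were found in at least 1 window of all 5 genes with an entry, against 41.1% and 38.2% of the 27025 genes of the table. No match overlapped another in these windows. A match describes the letters and is not a measured binding site, and a window without one holds no other information about the factor.

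Of the 8 genes, 7 were lower at day 8, none was higher, and Hmgcs1 did not pass the test (edgeR quasi-likelihood test, Benjamini-Hochberg adjusted p under 0.05 over 18763 tested genes). Across all tested genes, 30.1% were called lower and 27.5% higher at day 8. The median log2 fold change of the 8 genes was -0.45, against -0.0062 for all tested genes. For Idi1, Fdps, Fdft1 and Sqle, every day 8 library lay below every day 0 library in CPM (counts scaled to a common library total with TMM), a pattern shown by 21.4% of tested genes. On the deposited TPM values, which correct for length, 4 of the 8 were called lower (limma on log2(TPM + 1)), against 14.7% of 16866 genes. Those 4 were Idi1, Fdps, Sqle and Dhcr7.

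**Figure D1:**
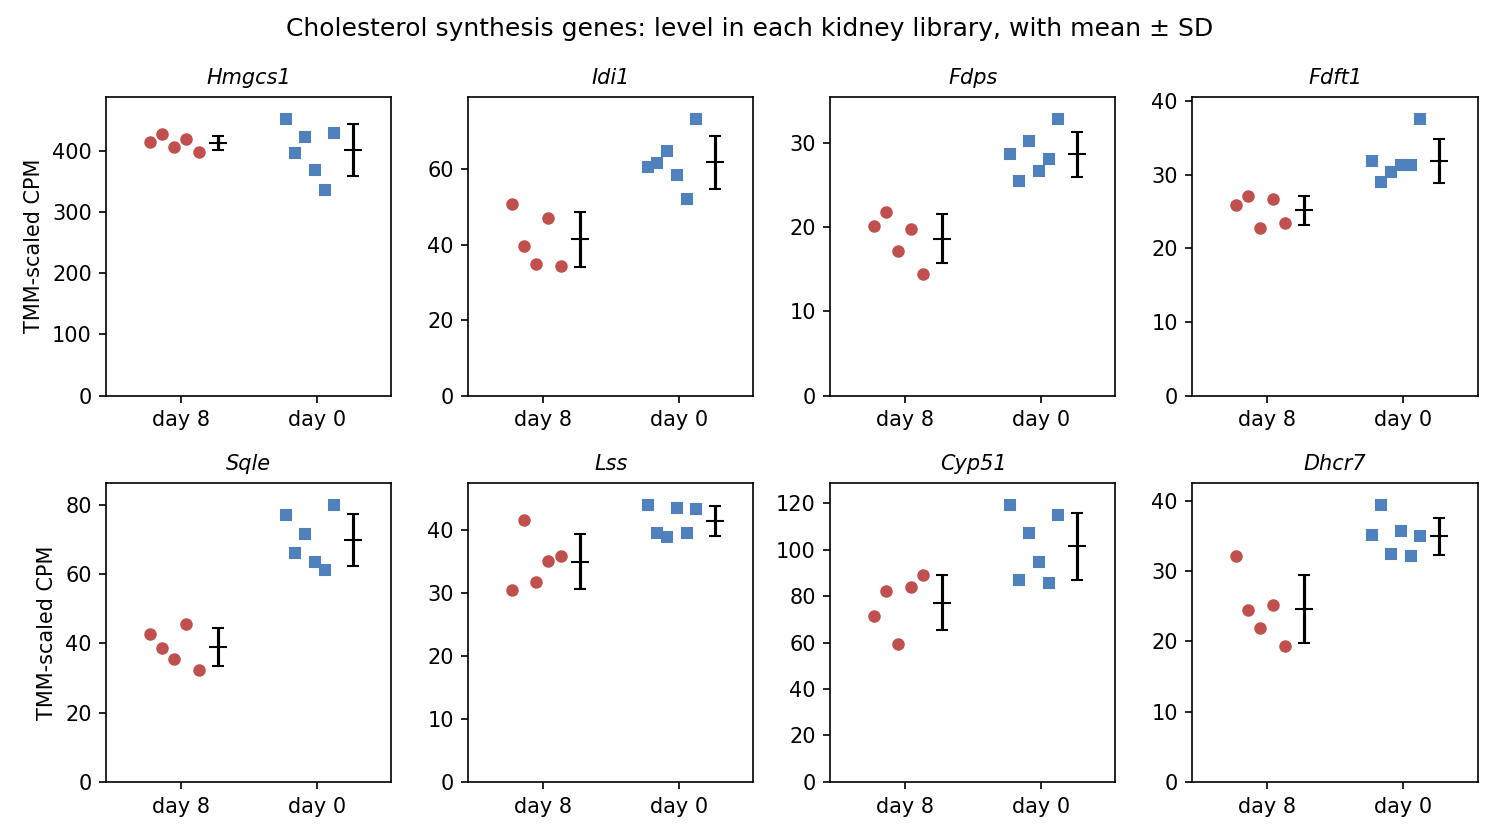
Level of each of the 8 genes in TMM-scaled CPM (vertical axes, from 0) in the 5 day 8 libraries (red circles) and the 6 day 0 libraries (blue squares), with the mean and SD as black bars. The ages lie apart for Idi1, Fdps, Fdft1 and Sqle, touch at single libraries for Lss, Cyp51 and Dhcr7, and lie at the same height for Hmgcs1, at 413 CPM on day 8 and 401 CPM on day 0 on average.

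Hmgcs1 encodes the cytosolic HMG-CoA synthase, which makes the HMG-CoA from which mevalonate is formed. It had 415, 428, 406, 420 and 397 CPM in day 8 libraries 1 to 5, against a lowest value of 336, a median of 410 and a highest of 452 CPM at day 0. All day 8 values fell inside the day 0 range. Its log2 fold change of 0.04 (SE 0.06) did not pass edgeR's test (adjusted p = 0.591). It was -0.0201 when only library size was used for scaling, and -0.0015 without day 0 library 5, which held the lowest value. On the TPM scale it was 0.196 (limma on log2(TPM + 1), adjusted p = 0.0516), where the median of all genes was 0.127. The gene lies on chromosome 13 from 119690379 to 119708260, plus strand (GRCm38).

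Idi1 encodes isopentenyl-diphosphate isomerase, which turns isopentenyl into dimethylallyl diphosphate. Its day 8 libraries 1 to 5 had 50.8, 39.8, 35.0, 47.2 and 34.4 CPM, against a range of 52.1 to 73.4 CPM and a median of 61.1 CPM at day 0. The highest day 8 library thus stood just under the lowest day 0 library, a log2 fold change of -0.58 (SE 0.11, edgeR adjusted p = 0.000787). Fdps encodes farnesyl diphosphate synthase, the last enzyme before the sterol and nonsterol branches part. It had 20.1, 21.8, 17.2, 19.7 and 14.4 CPM in day 8 libraries 1 to 5, against 25.5 to 32.9 CPM with a median of 28.4 CPM at day 0. The ages did not overlap on the TPM scale either, and the level at day 8 was 0.649 times that at day 0 (log2 fold change -0.62, SE 0.10, edgeR, adjusted p = 5.17e-05). Idi1 lies on chromosome 13 from 8885501 to 8892451, plus strand, and Fdps on chromosome 3 from 89093588 to 89101959, minus strand (GRCm38). The deposited counts of Idi1, Fdps and Fdft1 were not whole in any of the 11 libraries, so that their levels may include reads shared with other genes, which was not tested. Fdps shares 7512 bases with Gm43738 on the same strand, a row with 41 counts over all 11 libraries.

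Fdft1 encodes squalene synthase, which commits farnesyl diphosphate to sterols. It had 25.9, 27.1, 22.8, 26.7 and 23.5 CPM in day 8 libraries 1 to 5, against 29.0 to 37.6 CPM with a median of 31.3 CPM at day 0. The ages did not overlap in CPM but did in TPM, where the call was lost (log2 fold change -0.34 with counts, edgeR adjusted p = 0.000579, and -0.185 with limma on log2(TPM + 1), adjusted p = 0.163). Fdft1 (chromosome 14, 63145150 to 63179578, minus strand) shares 774 bases at its end with Ctsb, the cathepsin B gene on the opposite strand, which was higher at day 8 (394 ± 39.9 CPM on day 8, n = 5, and 246 ± 15.5 CPM on day 0, n = 6, SD). The sources used here do not say whether counting used the strand, and the part of Ctsb reads in Fdft1 was not tested.

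Sqle encodes squalene epoxidase, an oxygen-dependent step that limits flux through the sterol arm. It showed the largest fold change of the 8 genes, with 42.8, 38.6, 35.4, 45.6 and 32.4 CPM in day 8 libraries 1 to 5, against 61.2 to 80.0 CPM with a median of 68.8 CPM at day 0. The highest day 8 library was well below the lowest day 0 library, and edgeR gave a log2 fold change of -0.84 (SE 0.09, adjusted p = 3.81e-06). The TPM ranges were apart as well, with a mean of 18.7 ± 2.91 TPM at day 8 (SD, n = 5) and 30.6 ± 3.92 TPM at day 0 (SD, n = 6). Sqle spans 59315077 to 59331192 on the plus strand of chromosome 15 (GRCm38).

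Lss encodes lanosterol synthase, which folds squalene epoxide into the first sterol of the pathway. It changed least among the 7 called genes, with 30.5, 41.7, 31.8, 35.1 and 35.9 CPM in day 8 libraries 1 to 5, against 38.9 to 44.0 CPM with a median of 41.4 CPM at day 0. Day 8 library 2 stood inside the day 0 range and the other 4 below it, and edgeR gave a log2 fold change of -0.25 (SE 0.07, adjusted p = 0.00847). The call was lost on the TPM scale (adjusted p = 0.518 with limma on log2(TPM + 1)) and without day 8 libraries 3, 4 and 5 (edgeR adjusted p = 0.145). Lss runs from 76531588 to 76557138 on the plus strand of chromosome 10 (GRCm38).

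Cyp51 encodes lanosterol 14-alpha-demethylase, the cytochrome P450 of the pathway. It had 71.6, 82.0, 59.5, 83.9 and 89.0 CPM in day 8 libraries 1 to 5, against 85.5 to 119 CPM with a median of 101 CPM at day 0. Day 8 library 5 reached into the day 0 range and the other 4 did not, and edgeR gave a log2 fold change of -0.39 (SE 0.12, adjusted p = 0.0157). The call was lost on the TPM scale (adjusted p = 0.0902 with limma on log2(TPM + 1)), without day 8 libraries 3, 4 and 5 (edgeR adjusted p = 0.0503) and without day 0 libraries 1, 2 and 3 (edgeR adjusted p = 0.0855). Cyp51 (chromosome 5, 4081145 to 4104746, minus strand) shares 166 bases at its end with Akap9 on the opposite strand, an anchoring protein gene that was not called (167 ± 22.2 CPM on day 8, n = 5, and 164 ± 7.04 CPM on day 0, n = 6, SD).

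Dhcr7 encodes 7-dehydrocholesterol reductase, which makes cholesterol from its last precursor in one of the pathway's closing routes. It had 32.2, 24.4, 21.9, 25.1 and 19.4 CPM in day 8 libraries 1 to 5, against 32.1 to 39.4 CPM with a median of 35.1 CPM at day 0. Only day 8 library 1 met the day 0 range, at its lower edge, and edgeR gave a log2 fold change of -0.51 (SE 0.11, adjusted p = 0.000937). Dhcr7 spans 143823145 to 143848410 on the plus strand of chromosome 7 (GRCm38).

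**Figure D2:**
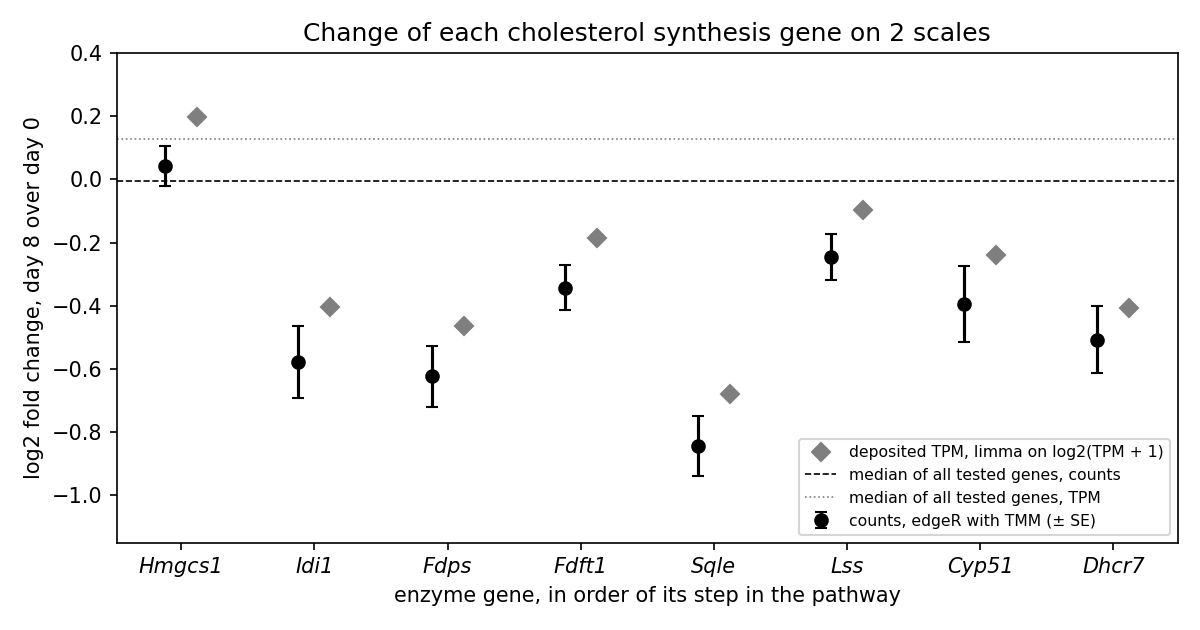
Log2 fold change, day 8 over day 0 (vertical axis), of each gene in pathway order: black circles with SE from edgeR on counts, grey diamonds from limma on log2(TPM + 1), with dashed and dotted lines at the median of all tested genes on each scale. Sqle lies lowest at -0.84 and Hmgcs1 beside the median line at 0.04, and every diamond lies above its circle, as does the TPM median of 0.127.

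Levels can be compared between genes only per length, in TPM. At day 8, Hmgcs1 averaged 176 ± 11 TPM and Cyp51, the next, 30.6 ± 4.66 TPM (SD, n = 5), while Lss was lowest at 11.7 ± 1.94 TPM. The day 8 order was Hmgcs1, Cyp51, Fdps, Idi1, Sqle, Dhcr7, Fdft1 and Lss, and of its neighbours Hmgcs1 and Cyp51, and Cyp51 and Fdps, had ranges that did not overlap. At day 0, Hmgcs1 averaged 154 ± 15.3 TPM, Cyp51 36.3 ± 5.41 TPM and Lss 12.6 ± 1.97 TPM (SD, n = 6), and the order was Hmgcs1, Cyp51, Sqle, Fdps, Idi1, Dhcr7, Fdft1 and Lss. There, Hmgcs1 and Cyp51 were the one pair of neighbours with separate ranges. Sqle held the third place at day 0 and the fifth at day 8, in both cases among neighbours whose ranges overlapped. Of the summed TPM of the 8 genes, Hmgcs1 made up 55.8% to 61.3% in day 8 libraries and 45.7% to 49.8% in day 0 libraries.

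The genes did not change by equal amounts. The log2 ratio of CPM between 2 genes does not depend on how libraries are scaled, and it was compared between the ages for all 28 pairs (two-sided exact permutation test over the 462 splits of 11 libraries, smallest possible p = 0.00433, Benjamini-Hochberg adjusted over the pairs). The ratio differed for 15 of the 28 pairs, and for 9 of these the ages did not overlap. Pairs of other genes were not compared, and 30.1% of all tested genes were called lower and 27.5% higher. These counts therefore do not show whether ratios among the 8 genes differ more often than ratios among other genes. All 7 ratios of Hmgcs1 to another gene were higher at day 8. The largest was that to Sqle, with a mean log2 ratio of 3.42 ± 0.17 at day 8 and 2.52 ± 0.07 at day 0 (SD, exact permutation test, adjusted p = 0.0135), a ratio 1.86 times as high at day 8. All 7 ratios of Sqle to another gene were lower at day 8, among them that to Lss, with a mean log2 ratio of 0.15 ± 0.28 at day 8 and 0.75 ± 0.14 at day 0 (exact permutation test, adjusted p = 0.0135). These shared directions restate that Hmgcs1 had the highest and Sqle the lowest fold change, and are not separate results. Fdps was also lower against Fdft1 and Lss. Of the 15 pairs, 11 passed the threshold in each of 12 alternatives, in which a library was left out or TPM was used, and the ratios Hmgcs1/Lss, Fdps/Sqle, Fdps/Lss and Sqle/Dhcr7 each missed it in at least 1 of them, at adjusted p between 0.0513 and 0.0808. Idi1 and Fdps, which act in succession, had a log2 ratio of 1.15 ± 0.19 at day 8 and 1.10 ± 0.13 at day 0 (exact permutation test, adjusted p = 0.645).

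**Figure D3:**
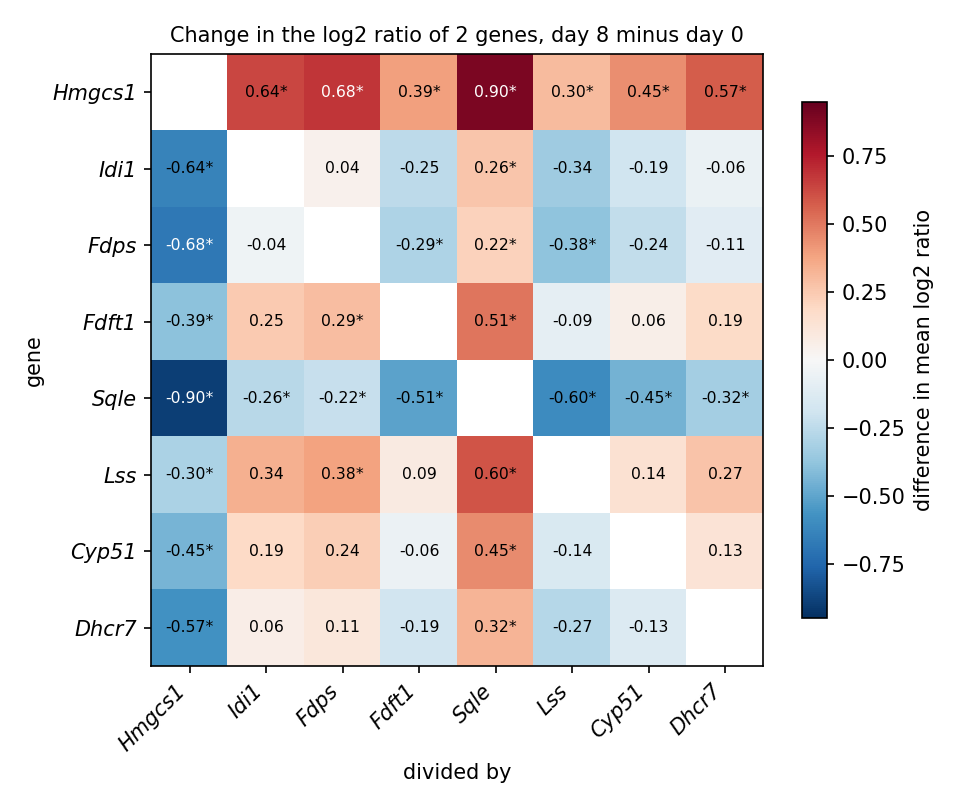
Difference between the ages, day 8 minus day 0, in the mean log2 ratio of the gene in each row to the gene in each column, with blue for a lower and red for a higher ratio at day 8. An asterisk marks an adjusted p under 0.05 in the exact permutation test. The Hmgcs1 row is red and the Sqle row blue throughout, as these genes had the highest and the lowest fold change, with 0.90 for Hmgcs1 over Sqle.

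Within an age, the genes moved together to differing degrees. The mean deviation of the 8 genes from their age mean (log2 CPM with a prior count of 2) was -0.157 in day 8 library 3, where 0 of the 8 genes were above their mean, and 0.106 in day 8 library 4, where all 8 were. At day 0 it was 0.158 in library 6, with all 8 above, and -0.142 in library 5, with 0 of 8 above. Over the 11 libraries, and after the mean of its age was taken from every value, single genes correlated with the mean of the 8, of which each is a part, at r = 0.92 for Sqle, 0.862 for Idi1, 0.828 for Fdft1, 0.806 for Fdps, 0.713 for Hmgcs1, 0.613 for Cyp51, 0.541 for Dhcr7 and 0.334 for Lss. Of 11051 other genes with a mean of at least 10 CPM, the 10 with the highest correlation of such deviations included Tmem41b, Twf1, Msmo1, Cct8, Cnnm4, Hspd1, Ccdc137, Samd8 and Manf, at r from 0.951 to 0.92, against a median r of 0.109. Msmo1, the sterol C4-methyl oxidase gene that acts between Cyp51 and Dhcr7, was the one enzyme of the pathway among them (r = 0.941). Below these 10, other enzymes of the pathway ranged widely, from Nsdhl, a sterol arm gene, at r = 0.906 (rank 16) to Tm7sf2, another, at 0.188 (rank 4710). Acly, whose enzyme makes cytosolic acetyl-CoA, stood at 0.887 (rank 21), whereas Abca1, which exports cholesterol, stood near the other end at -0.924. These values describe 11 libraries that share depth and composition differences.

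**Figure D4:**
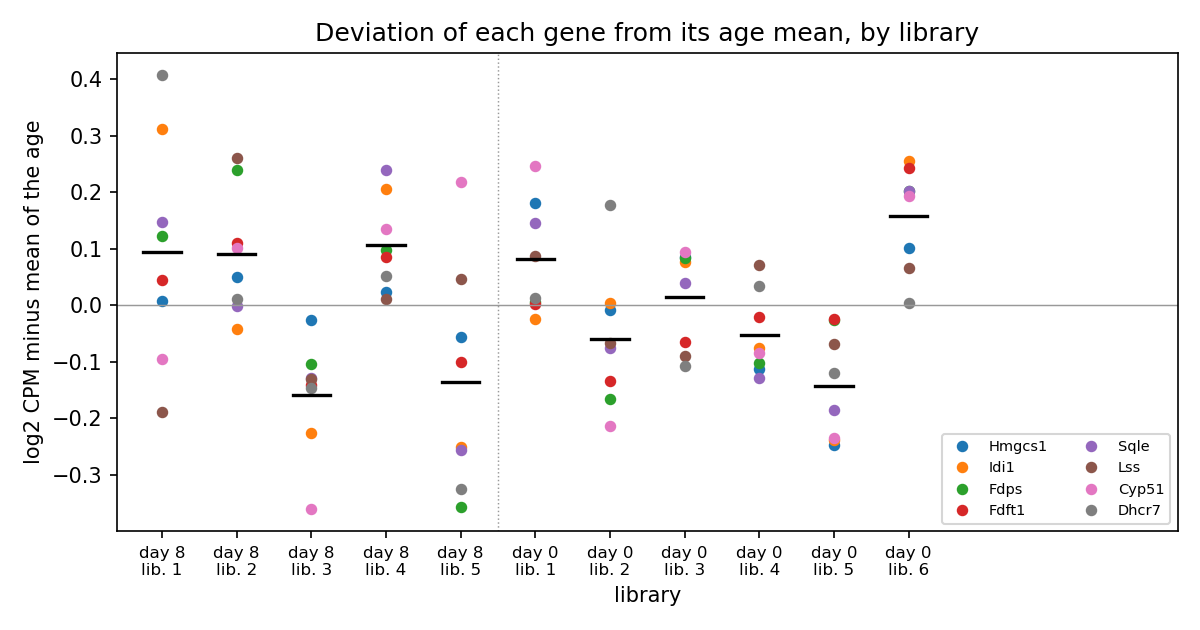
Deviation of each gene from its age mean in log2 CPM (vertical axis) in the 5 day 8 and 6 day 0 libraries, with 1 colour per gene and a black line at the mean of the 8 genes. Day 8 libraries 3 and 5 and day 0 library 5 lie low, and day 0 library 6 lies high.

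The other 13 enzymes listed for cholesterol synthesis showed both directions: 8 were called lower, 2 higher and 3 were not called. Over all tested genes, the shares were 30.1% lower and 27.5% higher. The median log2 fold change of the 13 enzymes was -0.268. The values of these and the following genes were known when those to name were chosen. In the mevalonate arm, Pmvk, the phosphomevalonate kinase gene, fell to 7.97 ± 0.29 CPM at day 8 (SD, n = 5), against 12.1 ± 0.71 CPM at day 0 (n = 6, edgeR adjusted p = 2.4e-06). Mvk, the mevalonate kinase gene, and Acat2, whose enzyme condenses acetyl-CoA, were lower at 0.778 and 0.789 times the day 0 level, and Mvd, the decarboxylase gene, was not called at 17.7 ± 2.06 CPM on day 8 and 17.5 ± 1.36 CPM on day 0. In the sterol arm, Msmo1 stood at 0.728 times and Lbr, a sterol reductase gene of the nuclear envelope, at 0.747 times the day 0 level, both called lower. Ebp, the sterol isomerase gene, was called higher, at 36.3 ± 3.03 CPM on day 8 and 21.6 ± 2.80 CPM on day 0 (1.68-fold, edgeR adjusted p = 2.06e-06). Ebp acts before Dhcr7 in the closing steps and moved opposite to it under all 24 alternatives. Mvk and Acat2 lost their calls with TPM (limma on log2(TPM + 1), adjusted p = 0.0562 and 0.0977), Mvk also without day 0 libraries 1, 2 and 3 (edgeR adjusted p = 0.0513), and Msmo1 with unfiltered TPM (adjusted p = 0.0949). With TPM, 3 or 4 of these 13 were called lower, and without day 0 libraries 1, 2 and 3, 5 were.

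Of 13 genes that sense sterols and control SREBP, 5 were lower, 5 higher and 3 not called, with a median log2 fold change of 0.0645. The shares over all tested genes, for this list and those below, were 30.1% lower and 27.5% higher. Srebf2, which encodes SREBP-2, fell to 185 ± 20.2 CPM at day 8, against 225 ± 14.9 CPM at day 0 (log2 fold change -0.28, edgeR adjusted p = 0.00202). Insig1, whose protein holds SCAP in the endoplasmic reticulum and which is itself an SREBP target, fell to 31.1 ± 3.00 CPM at day 8, against 40.4 ± 5.16 CPM at day 0 (log2 fold change -0.38, adjusted p = 0.00151). Srebf1, which encodes SREBP-1, was 1.42-fold higher at 95.5 ± 8.94 CPM on day 8 and 67.2 ± 3.22 CPM on day 0. Insig2 was 1.18-fold higher, and Scap was not called (edgeR adjusted p = 0.131). With TPM, Scap was called higher (log2 fold change 0.288, limma on log2(TPM + 1), adjusted p = 0.0114), as it was without day 8 library 1 (edgeR adjusted p = 0.0351). No gene of this list was called lower with TPM, where Srebf2 and Insig1 had adjusted p = 0.261 and 0.105 (limma on log2(TPM + 1)). The call of Insig1 was also lost without day 8 libraries 3, 4 and 5 (edgeR adjusted p = 0.067), and that of Insig2 with unfiltered TPM (adjusted p = 0.0509).

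Of 11 genes of the nonsterol branches, 1 was lower, 4 higher and 6 not called (median 0.0607). Fntb, a farnesyltransferase subunit gene, fell to 20.0 ± 1.51 CPM at day 8, against 27.3 ± 1.49 CPM at day 0, and Nus1, a subunit gene of the enzyme that starts dolichol, was 1.34-fold higher. Of 12 genes of cholesterol uptake and lysosomal release, 3 were lower and 6 higher (median 0.157). Lipa, the lysosomal acid lipase gene that frees cholesterol from its esters, was 1.92-fold higher at 174 ± 37.7 CPM on day 8 and 90.6 ± 7.65 CPM on day 0. Stard4, a cytosolic sterol carrier gene, was 1.43-fold and Vldlr, a lipoprotein receptor gene, 1.33-fold higher, while Lrp8, a related receptor gene, fell to 3.93 ± 0.38 CPM at day 8, against 7.70 ± 1.37 CPM at day 0, a call lost with unfiltered TPM (limma adjusted p = 0.0786).

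Of 12 genes of efflux, esterification and oxysterols, 11 were tested, of which 3 were lower, 6 higher and 2 not called (median 0.221). Abca1, an exporter of cholesterol to apolipoproteins, had 169 ± 17.0 CPM on day 8 and 101 ± 12 CPM on day 0 (1.67-fold, edgeR adjusted p = 4.74e-06), and Abcg1, a second exporter gene, was 1.66-fold higher. Nr1h3, which encodes the oxysterol receptor LXR-alpha that induces both exporters, was 2.77-fold higher at 5.59 ± 0.998 CPM on day 8 and 2.01 ± 0.35 CPM on day 0. Cyp7b1, an oxysterol hydroxylase gene, fell to 5.91 ± 0.70 CPM at day 8, against 11.2 ± 0.60 CPM at day 0. Of 14 genes of fatty acid synthesis, which SREBP-1 controls, 4 were lower, 7 higher and 3 not called (median 0.195). Acss2, which makes acetyl-CoA from acetate, was 2.93-fold and Me1, the malic enzyme gene that supplies NADPH, 2.21-fold higher, whereas Scd2, a desaturase gene, was lower at 0.718 times and Fasn, the fatty acid synthase gene, at 0.861 times the day 0 level. The call of Fasn was lost with TPM (log2 fold change -0.0779, against -0.22 with counts, limma on log2(TPM + 1), adjusted p = 0.487).

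**Figure D5:**
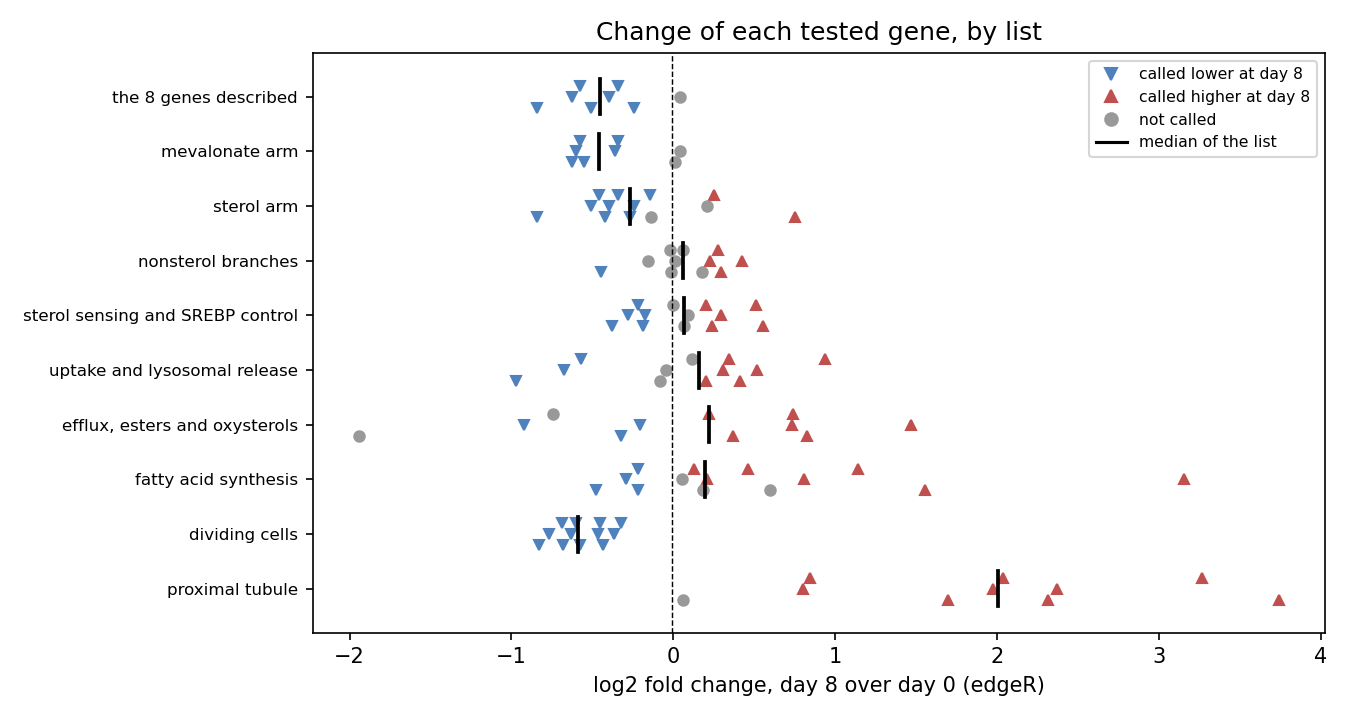
Log2 fold change, day 8 over day 0 (horizontal axis, edgeR), of every tested gene of each list, with triangles for called genes (blue, pointing down, lower; red, pointing up, higher at day 8), grey circles for genes not called, a black bar at the list's median and a dashed line at the median of all tested genes. Of the lists drawn, the 8 genes (median -0.45), the mevalonate arm (-0.458), the sterol arm (-0.268) and the dividing cell markers (-0.588) have medians below 0, and the others above.

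Markers of cell types moved between the same groups. Dividing cell markers were lower for 12 of 12 genes (median log2 fold change -0.588), with a summed level of 748 to 1051 CPM on day 8 and 1204 to 1414 CPM on day 0, and nephron progenitor markers were lower for 6 of 7. Proximal tubule markers were higher for 9 of 10, with summed levels of 10097 to 11021 CPM on day 8 and 4222 to 5491 CPM on day 0, and so the tubule markers of the labelled tissue were present in all libraries. Summed liver markers ranged from 12.4 to 103 CPM on day 8 and from 16.9 to 315 CPM on day 0, with day 0 libraries 1, 2 and 3 highest, and summed fat markers from 55.4 to 129 CPM on day 8 and from 50.3 to 66.4 CPM on day 0, with day 8 libraries 3, 4 and 5 highest. Of the 5 fat markers tested, 4 were called higher at day 8. The other, Fabp4, was not called and held 56.5 ± 4.60 CPM on day 8 and 58.1 ± 5.91 CPM on day 0 (SD) of the fat sum. Adrenal cortex is a tissue rich in cholesterol synthesis. Its summed markers were 11.2 to 15.9 CPM on day 8 and 12.6 to 25.6 CPM on day 0. Of the 4 adrenal markers tested, 2 were called lower at day 8, 0 higher and 2 were not called. Akr1b7, which held most of the adrenal sum, averaged 9.39 CPM on day 8 and 14.4 CPM on day 0 (edgeR adjusted p = 0.0204). Mc2r averaged 0.328 CPM on day 8 and 0.947 CPM on day 0 (edgeR adjusted p = 0.00114). Cyp11b1, not tested, was 0 in 5 of 5 day 8 libraries and 5 of 6 day 0 libraries, the other holding 0.991 CPM. Myelinating glia, which make much cholesterol, had summed markers of 84.4 to 94.9 CPM on day 8 and 87.5 to 102 CPM on day 0, blood 20.0 to 48.4 CPM on day 8 and 25.2 to 57.7 CPM on day 0, and skeletal muscle 0.439 to 0.913 CPM on day 8 and 2.08 to 23.0 CPM on day 0. The part of these cell types in the change of the 8 genes was not tested, and in bulk tissue fewer cells of a type and less RNA per cell cannot be told apart. Without day 8 libraries 3, 4 and 5, 5 of the 8 genes were called lower, against 21.4% of 19352 tested genes, and without day 0 libraries 1, 2 and 3, 6 were, against 24.4% of 19103.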

How the data were processed

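Kidney total RNA was made, per the labels' protocols, into stranded, ribosomal RNA-depleted libraries. The submitters' processing notes name mm10 and the tools FastQC, fastp, DRAGEN and Picard; the counting tool, annotation and strand setting are not given in the sources used here. The authors deposited estimated counts and TPM for 32692 gene rows. Of 12 samples in the labels, 11 were matched to columns by title. Library totals ran from 18222170 to 24428652 estimated counts, and the 8 genes held between 327 and 10070 per library. Between libraries of an age, each of 25 pairs differed beyond sampling noise (chi-square per degree of freedom 4.64 to 41.6, genes with at least 10 counts).

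Counts were rounded and tested with edgeR 4.0.16 in R 4.3.3 (TMM, filterByExpr, robust quasi-likelihood, age as the only term, Benjamini-Hochberg, 0.05). The test step was tested on simulated data. The test on TPM used limma 3.58.1 on log2(TPM + 1) for genes with a mean of at least 1 TPM, and such fold changes understate those of low genes. Pairs of genes were compared by exact permutation with scipy 1.17.1. Other alternatives were DESeq2 1.42.0, limma-voom, RLE, upper quartile and library size scaling, other filters, a pseudocount of 0.1, a stricter adjusted p (0.01) and each library left out. Leaving out day 8 libraries 3, 4 and 5 or day 0 libraries 1, 2 and 3 was added after seeing the data. Positions follow GENCODE vM21 (GRCm38, of which mm10 is another name), and promoters are from RefSeq. Genes named are the 8 members, list genes and the 10 genes most correlated with the members; some genes these rules name are not reported here. The 8 genes and all lists were chosen with earlier results of these data known.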

Additional observations from a re-analysis of the deposited data

Results flagged for a closer look

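In 112 groups of values checked, of the 8 genes in CPM and TPM and of 40 list genes in CPM, 5 held a library that stood apart from the rest of its age by Dixon's ratio, which flags about 1 in 20 groups by chance. Among the 8 genes these were Fdft1, with 37.6 CPM in day 0 library 6 where the next was 31.9 CPM, and Idi1, with 33.6 TPM in the same library where the next was 26.1 TPM. Hsd17b7, a sterol arm reductase gene, had 49.0 CPM in day 0 library 6 where the next was 39.1 CPM. All 8 genes lay above their age mean in day 0 library 6, as they did in day 8 library 4. Mvd had 21.3 CPM in day 8 library 2 where the next was 17.4 CPM, and Pmvk had its lowest day 8 value, 7.47 CPM, in library 1 where the next was 8.01 CPM.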

How the results depend on the processing

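Idi1, Fdps, Sqle and Dhcr7 were called lower under all 24 alternatives, with log2 fold changes of -0.652 to -0.405, -0.689 to -0.451, -0.906 to -0.681 and -0.613 to -0.3. With TPM (pseudocount 1, pseudocount 0.1, and pseudocount 1 without a filter), 4 of the 8 genes were called lower each time. Fdft1 then had log2 fold changes of -0.185, -0.197 and -0.185 (limma adjusted p = 0.163, 0.162 and 0.248), Lss -0.0972, -0.104 and -0.0972 (0.518, 0.518 and 0.595) and Cyp51 -0.24, -0.246 and -0.24 (0.0902, 0.09 and 0.166). Across all genes, TPM gave 2477, 2474 and 2830 lower calls, and higher calls were 47.8% of all calls with TMM and 68.7%, 68.5% and 66.7% with TPM, where the median of all genes was 0.127, 0.145 and 0.0219. Cyp51 also lost its call at an adjusted p of 0.01 (log2 fold change -0.395, edgeR adjusted p = 0.0157), and at -0.398 and -0.342 without day 8 libraries 3, 4 and 5 and without day 0 libraries 1, 2 and 3. Lss lost it at -0.198 without those day 8 libraries.

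Hmgcs1 turned to -0.0201 with library size only, and lay between -0.0015 and 0.0846 with each library left out in turn. With TPM it was 0.196, 0.197 and 0.196, just short of a higher call (limma adjusted p = 0.0516, 0.051 and 0.0775). Without day 0 libraries 1, 2 and 3 it was 0.138 (edgeR adjusted p = 0.134). Leaving out each library moved none of the other members' calls, and called pairs numbered 11 to 17. Lower calls by list with TPM were 4, 4 and 3 for the other enzymes and for the whole sterol arm, 0 for SREBP control, 1 for efflux and for fatty acid synthesis, and 1 for uptake without a filter. The nonsterol count was 2 with library size only. Without day 8 libraries 3, 4 and 5, lower calls were 2 for SREBP control and 1 for uptake, and without day 0 libraries 1, 2 and 3, 5 for the other enzymes. Signs that changed without a call were those of Mvd (-0.0543 with library size only, -0.00298 with upper quartile, and -0.0621 to 0.0515 with each library left out), Hsd17b7 (0.1, 0.108 and 0.1 with TPM) and the ratios Idi1/Dhcr7 (0.00886 with TPM), Idi1/Fdps (-0.00316 to 0.114 with each library left out) and Cyp51/Dhcr7 (-0.00624 to 0.255). Sc5d, called lower at an edgeR adjusted p of 0.037, was 0.0011, 0.0015 and 0.0011 with TPM. It also lost its call with DESeq2 (adjusted p = 0.0759), and in edgeR with RLE (0.0571), without a filter (0.0809) and at the stricter threshold of 0.01. The same held without day 0 library 1, 2, 4 or 6, or day 8 library 3, 4 or 5 (edgeR adjusted p from 0.0581 to 0.134). Without day 8 libraries 3, 4 and 5 its edgeR adjusted p was 0.459, and without day 0 libraries 1, 2 and 3 it was 0.105. Scap and Nsdhl gained a call with TPM, both as higher (0.288 and 0.327, limma on log2(TPM + 1), adjusted p = 0.0114 and 0.00844). Nsdhl also gained it without day 0 library 6, day 8 library 3 or day 8 library 5 (edgeR adjusted p = 0.0111, 0.016 and 0.0283). It did so too with a filter on CPM (edgeR adjusted p = 0.0489) and without day 8 libraries 3, 4 and 5 (0.0113). The cause of these changes was not tested. No paired analysis was possible because the titles carry no replicate numbers shared between the ages.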
